A study of Mus musculus with 5 samples.

Results

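The nuclear genes for the subunits of the oxidative phosphorylation (OXPHOS) complexes were examined in sympathetic neurons with and without *Hif1a*. Members were the protein-coding genes of the count table whose symbol begins with Nduf followed by a, b, c, s or v, with Uqcr, Cox4i, Cox5, Cox6, Cox7, Cox8 or Atp5, or is *Sdha*, *Sdhb*, *Sdhc*, *Sdhd* or *Cyc1*, and that had at least 10 counts summed over the libraries. The rule used no difference between genotypes, and it gave 82 of the 20224 genes listed. Of these, 36 encode complex I, 4 complex II, 9 complex III, 16 complex IV and 17 complex V. *Ndufa4* and *Ndufa4l2* carry a complex I name but were counted with complex IV, where the NDUFA4 protein is now placed. *Atp5s*, which the prefix brings in, is not a structural subunit of the ATP synthase.

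The series compared 2 control libraries (5 and 6) with 3 *Hif1aCKO* libraries (3, 4 and 5), each made from 100 cells sorted as eGFP and tdTomato double positive from the stellate ganglia and thoracic sympathetic chain of E14.5 mouse embryos of non-diabetic pregnancies. Controls were *Hif1a* loxP/+; *Isl1Cre*; *tdTomatoAi14*; *Prph-eGFP*, and mutants were *Hif1a* loxP/loxP with the same *Isl1Cre*, *tdTomatoAi14* and *Prph-eGFP* alleles. Both groups therefore carried the Cre knocked into *Isl1*, both reporters and at least 1 floxed *Hif1a* allele, and the controls keep 1 *Hif1a* allele that Cre cannot delete. Cre is driven by *Isl1*, which is active in sympathetic neurons and in other *Isl1* lineages, and the animals were of mixed C57BL/6J, C57BL/6N and FVB background. The study's methods give 2 control and 3 *Hif1aCKO* embryos, the same numbers as the libraries, and call each set of 100 cells a biological sample, but the labels do not tie a library to an embryo.

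The mitochondrial respiratory chain passes electrons from NADH through complex I, or from succinate through complex II, to ubiquinone, on to cytochrome c by complex III, and to oxygen by complex IV. Complexes I, III and IV pump protons as they do so, and complex V, the ATP synthase, makes ATP from their return. Most subunits are encoded in the nucleus, a few in mitochondrial DNA, and neurons rely on this pathway for most of their ATP. HIF-1 is a transcription factor that is stabilised at low oxygen, raises glycolytic genes and is known to act on respiration at single points, among them the complex IV subunit genes *Cox4i2* and *Ndufa4l2*.

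Total counts were between 8254211 and 9700887 per library. All 10 sympathetic neuron markers, among them *Th* and *Dbh*, had at least 10 counts in every library, and their summed level was 8391 and 10310 CPM (counts scaled to a common library total) in the controls and 7470 to 7757 CPM in *Hif1aCKO*. Library *Hif1aCKO* 3 stood apart by its Schwann cell precursor markers, which summed to 129 CPM against 3.40 to 6.22 CPM in the other libraries and were mostly *Fabp7* with 926 counts. *Hif1a* itself gave 2086 and 1584 normalized counts in the controls and 2747, 1757 and 2135 in *Hif1aCKO*. These are counts over the whole gene and do not resolve the floxed exon, so they do not check the deletion. In bulk libraries such as these, fewer cells of a type and less RNA per cell cannot be told apart.

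The members were among the most abundant transcripts of these neurons. Together they took 2.067% and 1.938% of all counts in the controls, and 2.078%, 2.074% and 2.258% in *Hif1aCKO*, or 2.00% ± 0.0914 (SD, n = 2) and 2.14% ± 0.105 (SD, n = 3). All *Hif1aCKO* shares were above both controls, but *Hif1aCKO* 3 and 4 only just above control 5. For levels between genes, counts were divided by the length of 1 transcript per gene and scaled to a common total in each library, which gives the length-adjusted unit TPM. On that scale the median member stood at 448 TPM, at percentile 97.6 of all genes tested, and 66 of the 82 members were among the 1000 highest genes. The medians of the complexes were 351 TPM for complex I, 322 TPM for complex II, 692 TPM for complex III, 801 TPM for complex IV and 749 TPM for complex V.

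The highest member of each complex had a level per length above 900 TPM. These were *Ndufb8* of complex I at 951 TPM, *Sdhb*, the iron-sulfur subunit of succinate dehydrogenase, at 933 TPM, *Uqcr10* of complex III at 919 TPM, *Cox4i1*, the usual isoform of complex IV subunit 4, at 1786 TPM, and *Atp5e*, the epsilon subunit of the ATP synthase, at 1794 TPM. The lowest were isoforms known from other tissues: *Cox7a1*, the muscle form of subunit 7a, at 5.49 TPM, *Cox4i2* at 8.43 TPM and *Cox6b2*, the testis form of subunit 6b, at 8.64 TPM. Several subunits that sit in fixed numbers in their complex had unequal values. *Ndufb4* was at 43.7 TPM and *Atp5l* at 80.2 TPM, far from most partners in the same complex. Reads that map to several places were not counted, and of the 50-base windows in the transcripts of these genes, 37.0% for *Ndufb4* and 84.9% for *Atp5l* also occur in transcripts of other annotated genes. *Ndufb2* at 44.6 TPM and *Ndufab1* at 61.7 TPM were as low with shares of 5.39% and 12.3%, and their annotated transcripts are long, at 4371 and 3479 bases. The share was 87.4% for *Atp5g2*, and 30 of the 82 members shared more than 10% of their windows, so their levels are uncertain. A large share did not always go with a low value, as *Atp5h* stood at 1167 TPM with a share of 50.5%. The part of shared windows and of transcript length in these values was not tested.

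**Figure D1:**
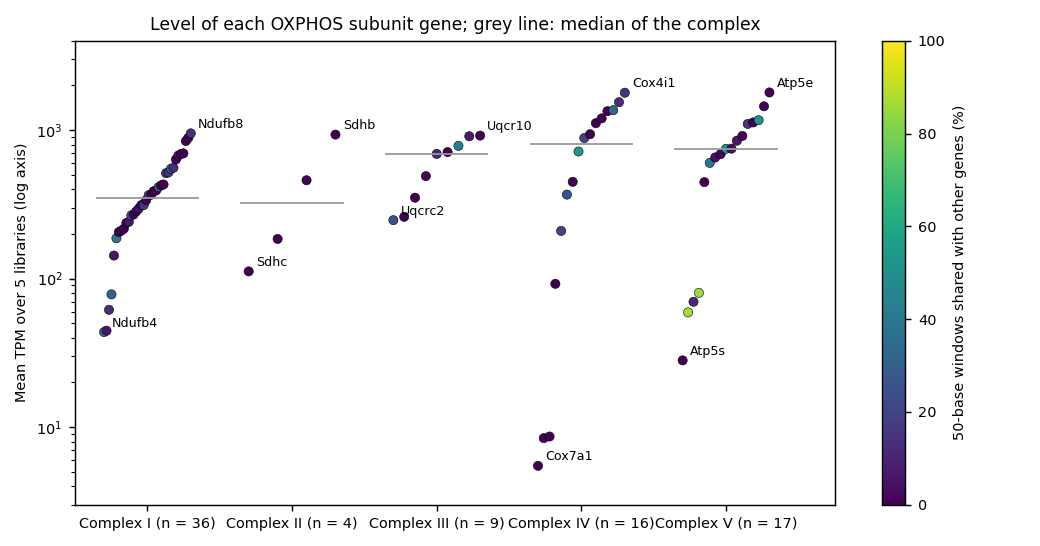
Mean TPM over the 5 libraries (log axis) for each of the 82 members, grouped by complex and ordered by level within it. Grey lines are the medians of the complexes and colour is the percent of 50-base windows shared with other genes. The medians of the complexes run from 322 to 801 TPM, *Cox7a1* is the lowest at 5.49 TPM, and *Atp5g2* and *Atp5l* have the largest shared percentages.

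No member changed between genotypes at the threshold used. Calls required an adjusted p under 0.05 in edgeR's quasi-likelihood test, a mean normalized count of 50 or more, and a log2 fold change beyond 0.3 in either direction. All 82 members were tested among 15032 genes, and 0 of them were called, where 0 genes in all (0.0%) were called. DESeq2 called 60 genes (0.297%) and the likelihood ratio test of edgeR called 40, with 0 members in each. At an unadjusted p under 0.05, 2 members passed, against 1153 of all genes (7.67%). They were *Cox4i2*, which was lower (background 3.85%), and *Atp5l*, which was higher (background 3.83%). The smallest adjusted p of a member was 0.621 (quasi-likelihood test, Benjamini-Hochberg).

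The count data bounded most members closely. The 95% interval of the fold change lay within 1.5-fold either way in 66 of 82 members, or 80.5%, where 14.1% of all genes and 58.3% of the genes with a mean normalized count of 1000 or more had so narrow an interval. The coefficient of variation (CV) within groups had a median of 8.31% over the 68 members with a mean of 1000 or more, with a range of 2.48% to 18.6%, and of 11.1% over the 2087 genes at that level. The 6 members with the largest CV, which ran from 32.8% to 127%, were *Cox4i2*, *Cox7a1*, *Ndufa4l2*, *Cox6b2*, *Atp5s* and *Ndufs5*, all with a mean of fewer than 400 normalized counts.

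The fitted values leaned slightly upward. In *Hif1aCKO*, 57 members had a log2 fold change above 0 and 25 below it, where 51.3% of all genes were above 0. The median log2 fold change was 0.10 over the members and 0.012 over all genes, and the median standard error (SE) of a member was 0.15. The groups did not overlap, with all 3 *Hif1aCKO* values above both controls, in 14 members (background 12.9%), and with all 3 below in 6 members (background 12.9%). The 14 were *Ndufa2*, *Ndufa7*, *Ndufa11*, *Ndufb2*, *Ndufb8*, *Ndufb9*, *Uqcr10*, *Cox6a1*, *Cox7a2*, *Cox7c*, *Cox8a*, *Atp5j*, *Atp5j2* and *Atp5l*, and the 6 included *Ndufa10*, *Ndufs1*, *Uqcrc2*, *Cox4i2* and *Cox7a2l*. Together these were 20 members, against 25.7% of all genes and 31.7% of the genes with a mean of 1000 or more. The median deviation of the members from their own mean over the 5 libraries was -0.015 and -0.064 on the log2 scale in controls 5 and 6, and 0.0086, -0.019 and 0.11 in *Hif1aCKO* 3, 4 and 5. *Hif1aCKO* 4 lay between the controls, and the median over members was 0.036 without control 6 and 0.051 without *Hif1aCKO* 5. The median over all genes in those fits was 0.038 and 0.0053, so without control 6 the members were level with all genes.

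**Figure D2:**
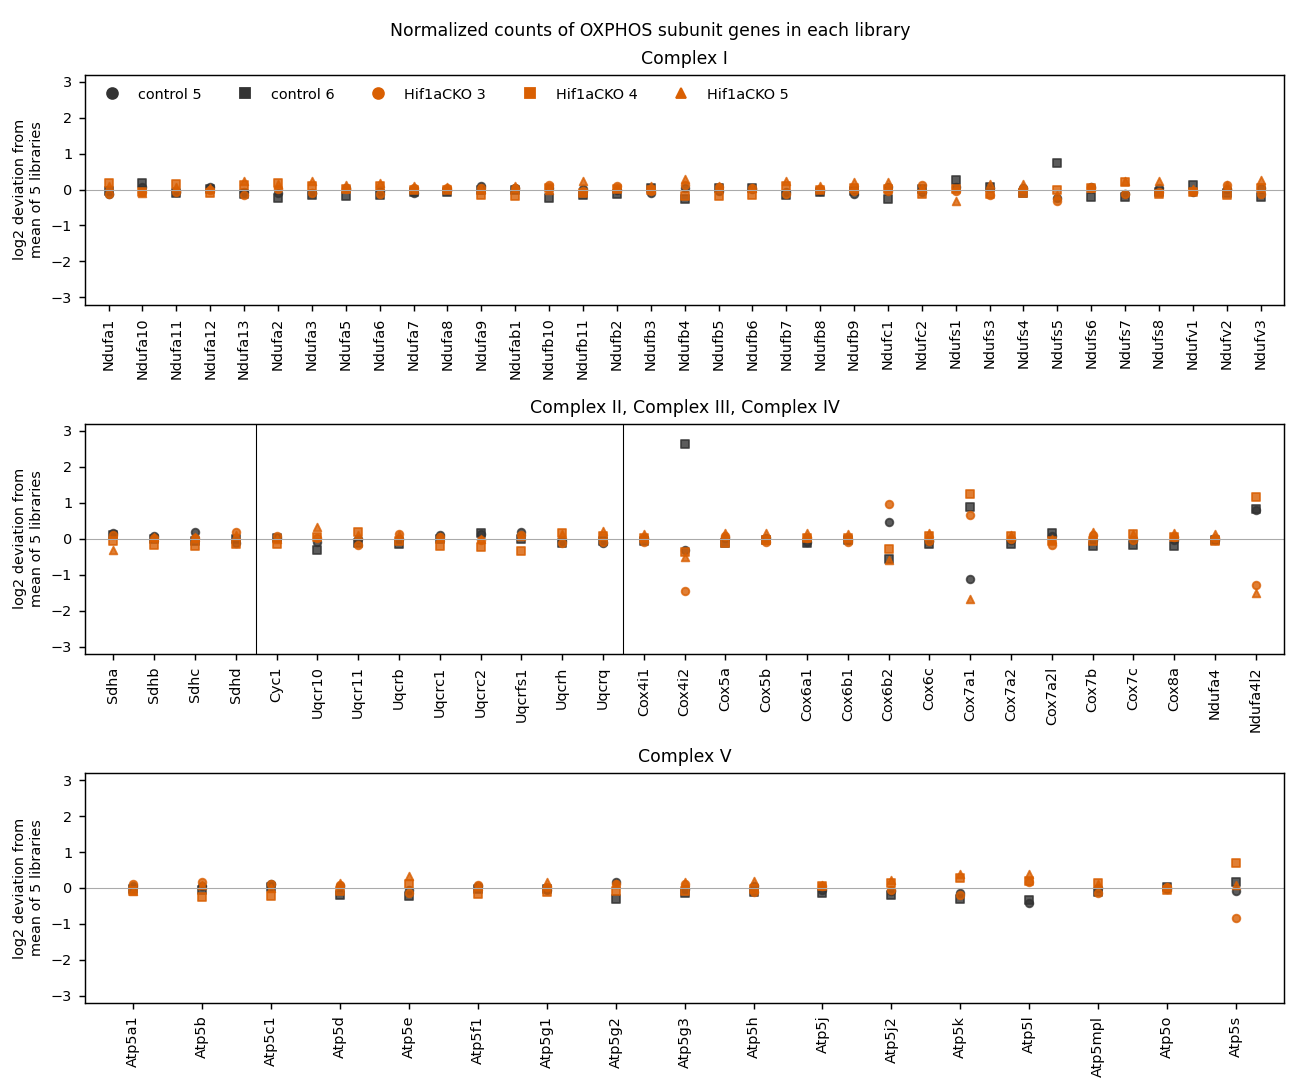
Deviation of the normalized count of each member shown from its own mean over the 5 libraries (log2), with controls in grey and *Hif1aCKO* in orange. Most members lie within a narrow band around 0 in every library, and *Cox4i2*, *Cox6b2*, *Cox7a1*, *Ndufa4l2*, *Ndufs5* and *Atp5s* spread widely.

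**Figure D3:**
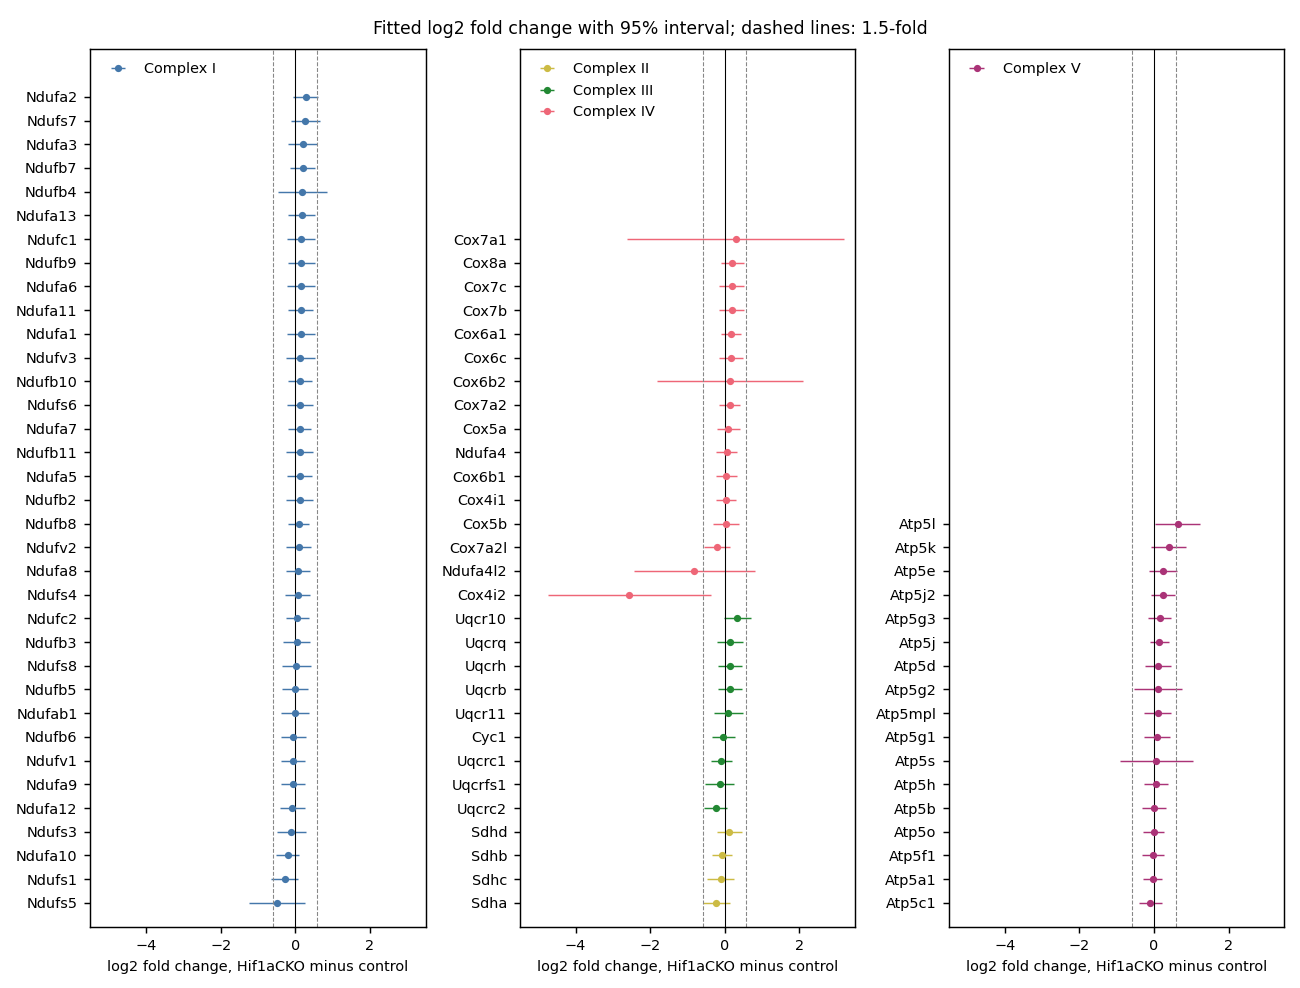
Fitted log2 fold change of each member shown (point) with its 95% interval (line), by complex, with dashed lines at 1.5-fold. Most intervals lie between the dashed lines, and those of *Cox4i2* and *Atp5l* leave out 0.

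Complex I, which oxidises NADH, had 25 members higher and 11 lower in *Hif1aCKO*, with a median log2 fold change of 0.10. Its 7 nuclear core subunits, which bind the flavin and the iron-sulfur clusters, had a median of -0.058 with 3 higher and 4 lower, and the 29 supernumerary subunits around them a median of 0.12 with 22 higher and 7 lower. The complex I member with the smallest p was *Ndufa2*, a supernumerary subunit, with 1632 and 1480 normalized counts in the controls and 1765, 1965 and 1924 in *Hif1aCKO*. The groups did not overlap, and the log2 fold change was 0.28 (SE 0.14, adjusted p = 0.698 by the quasi-likelihood test). *Ndufs1*, the largest core subunit, which carries iron-sulfur clusters, gave 1810 and 2057 in the controls and 1659, 1738 and 1366 in *Hif1aCKO*. It lay lower in every *Hif1aCKO* library by a log2 fold change of -0.28 (SE 0.16, adjusted p = 0.715 by the same test). *Ndufs7*, the core subunit nearest to the ubiquinone site, gave 1159 and 1098 in the controls and 1154, 1449 and 1469 in *Hif1aCKO*. Its *Hif1aCKO* 3 value fell between the controls, with a log2 fold change of 0.27 (SE 0.17).

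*Ndufa10* and *Ndufs5* show how different the precision was within the same complex. *Ndufa10*, a supernumerary subunit, had 2017 and 2170 normalized counts in the controls and 1843, 1828 and 1784 in *Hif1aCKO*. Its mutant libraries had an SD of 31.0 (n = 3) and were all below the controls, and the log2 fold change of -0.20 had a 95% interval of -0.51 to 0.10. *Ndufs5*, another supernumerary subunit, had 197 and 386 counts in the controls and 187, 230 and 209 in *Hif1aCKO*. Here control 6 alone was high, the groups overlapped, and the interval of -1.23 to 0.26 was wide. The transcript of *Ndufs5* shares 31.1% of its windows with other genes. *Ndufb8*, the member with the highest level in complex I, had 2832 and 2823 counts in the controls and 2967, 2894 and 3164 in *Hif1aCKO*, a log2 fold change of 0.089 (SE 0.12).

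Complex II, succinate dehydrogenase, is encoded in the nucleus alone, and its 4 genes had a median log2 fold change of -0.088. *Sdha*, the flavin subunit, gave 2715 and 2597 normalized counts in the controls and 2599, 2308 and 1938 in *Hif1aCKO*. *Hif1aCKO* 3 lay between the controls and *Hif1aCKO* 5 was the lowest, for a log2 fold change of -0.22 (SE 0.16, adjusted p = 0.767 by the quasi-likelihood test). *Sdhb* gave 5139 and 4831 in the controls and 4859, 4314 and 5041 in *Hif1aCKO*, with a log2 fold change of -0.073. The membrane anchors *Sdhc* and *Sdhd* had log2 fold changes of -0.10 (SE 0.16) and 0.12 (SE 0.15), both smaller than their SEs. In all 4 genes the groups overlapped, and each 95% interval lay within 1.5-fold.

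Complex III, the cytochrome bc1 complex, had 5 members higher and 4 lower with a median of 0.10. *Uqcr10*, its small subunit 9, had 1678 and 1441 normalized counts in the controls and 1831, 1861 and 2246 in *Hif1aCKO*. All mutant libraries were above both controls, and the log2 fold change was 0.34 (SE 0.16, 95% interval -0.026 to 0.71, adjusted p = 0.677 by the quasi-likelihood test). *Uqcrc2*, a core subunit, went the other way, with 2337 and 2353 counts in the controls and 2051, 1809 and 2103 in *Hif1aCKO*. Its groups did not overlap either, and the log2 fold change was -0.24 (SE 0.14, adjusted p = 0.715 by the same test). The catalytic subunits *Cyc1*, which carries a heme, and *Uqcrfs1*, the Rieske iron-sulfur protein, had values of -0.039 (SE 0.13) and -0.13 (SE 0.17).

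Complex IV, cytochrome c oxidase, had 13 members higher and 3 lower with a median of 0.12. Its usual isoforms had narrow intervals. *Cox4i1* gave 6234 and 5959 normalized counts in the controls and 5803, 6259 and 6776 in *Hif1aCKO*, with a log2 fold change of 0.043 (SE 0.11, 95% interval -0.22 to 0.31). *Ndufa4* gave 3257 and 3241 in the controls and 3338, 3152 and 3638 in *Hif1aCKO*, with a log2 fold change of 0.055 (SE 0.13). For both, the *Hif1aCKO* values ran from below the controls to above them. *Cox6b1*, at 1342 TPM, had a log2 fold change of 0.046 (SE 0.12). *Cox6a1*, *Cox7a2* and *Cox8a* were higher in all mutant libraries, with log2 fold changes of 0.18, 0.13 and 0.20 and SEs of 0.12, 0.12 and 0.13. *Cox7a2l* is known for a part in joining complexes III and IV into supercomplexes, which was not measured here. It gave 1074 and 1139 counts in the controls and 911, 980 and 1012 in *Hif1aCKO*. The gene lay lower in all mutant libraries, with a log2 fold change of -0.19 (SE 0.15).

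The alternative isoforms that HIF-1 is known to raise did not pass the test, and their libraries disagreed within a group. *Ndufa4l2* (chr10:127514967-127517154, GRCm38, plus strand), a paralogue of *Ndufa4*, had 501 and 572 raw counts in the controls and 113, 674 and 108 in *Hif1aCKO*. *Hif1aCKO* 3 and 5 were far below the controls, while *Hif1aCKO* 4 was above them. The log2 fold change over all libraries was -0.81 (SE 0.71, adjusted p = 0.822 by the quasi-likelihood test), and without *Hif1aCKO* 4 it was -2.22. Per length, *Ndufa4l2* made 9.47% and 9.66% of the *Ndufa4* and *Ndufa4l2* level in the controls and 2.32%, 12.2% and 1.85% in *Hif1aCKO*.

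*Cox4i2* (chr2:152754173-152765037, plus strand) had 12 and 107 raw counts in the controls and 5, 12 and 11 in *Hif1aCKO*. Control 6 alone was high, and control 5 was level with *Hif1aCKO* 4. The log2 fold change was -2.56 (SE 0.95, unadjusted p = 0.0262 and adjusted p = 0.621 by the quasi-likelihood test), and without control 6 it was -0.42. The gene made 0.209% and 1.71% of the summed *Cox4i1* and *Cox4i2* level in the controls and 0.0963% to 0.199% in *Hif1aCKO*, so the usual isoform made nearly all of the subunit 4 mRNA in every library. *Cox6b2* and *Cox7a1* had at most 38 and 18 raw counts in any library, and their intervals spanned -1.82 to 2.10 and -2.61 to 3.21.

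Some genes outside the complexes were also lowest in *Hif1aCKO* 3 and 5, although their *Hif1aCKO* 4 values were below the controls where that of *Ndufa4l2* was above. *Chgb*, chromogranin B, which is high in chromaffin cells, gave 5514 and 8695 normalized counts in the controls and 776, 4732 and 1106 in *Hif1aCKO*. *Rgs5*, a regulator of G protein signalling known from pericytes and from oxygen-sensing cells, gave 1168 and 1287 in the controls and 33.2, 1128 and 186 in *Hif1aCKO*. *Epas1*, which encodes HIF-2alpha, gave 485 and 568 in the controls and 109, 338 and 168 in *Hif1aCKO*. In each, *Hif1aCKO* 4 lay closest to the controls. The 3 chromaffin markers together, nearly all of it *Chgb*, ran from 625 to 978 CPM in the controls and from 90.01 to 558 CPM in *Hif1aCKO*. The other markers did not follow that order. *Pnmt*, the defining enzyme of adrenaline cells, had 28 and 55 raw counts in the controls and 17, 3 and 11 in *Hif1aCKO*, lowest in *Hif1aCKO* 4, and *Penk* had 57 in control 6 and at most 2 elsewhere. *Chat*, the acetylcholine-making enzyme from the motor neuron list, had 52 and 53 raw counts in the controls and 12, 52 and 13 in *Hif1aCKO*, and *Hif1aCKO* 3 and 5 were again the low ones. Raw counts of the pericyte gene *Pdgfrb* were at most 2. The part of these genes or of a mixture of cell states in the *Ndufa4l2* values was not tested.

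**Figure D4:**
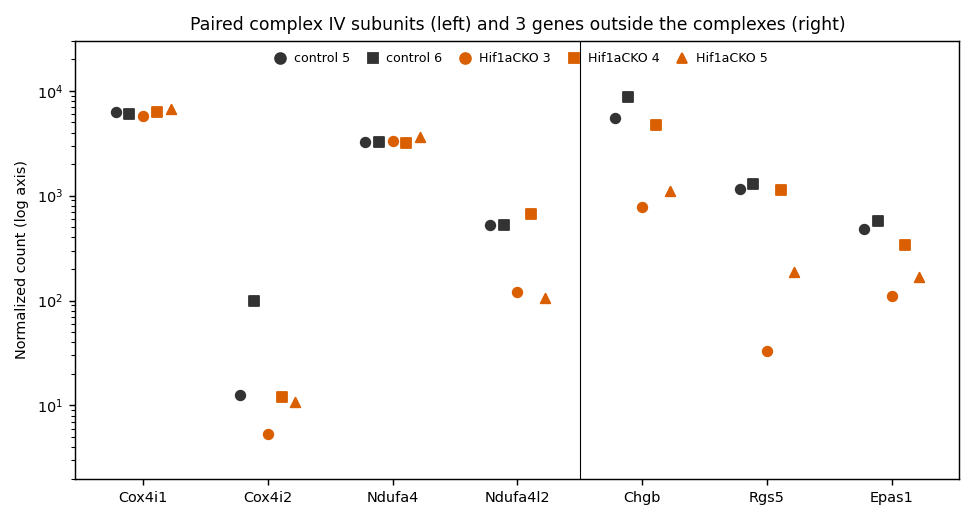
Normalized counts (log axis) in each library for *Cox4i1*, *Cox4i2*, *Ndufa4* and *Ndufa4l2* on the left and for *Chgb*, *Rgs5* and *Epas1* on the right, with controls in grey and *Hif1aCKO* in orange. *Cox4i1* and *Ndufa4* are level in the 5 libraries, *Cox4i2* is high in control 6 alone, and *Ndufa4l2* is low in *Hif1aCKO* 3 and 5, as are the 3 genes on the right.

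Complex V, the ATP synthase, had 13 members higher and 4 lower with a median of 0.098. The 5 genes of its F1 part, the catalytic head with the central stalk, had a median of 0.0026. The largest in counts, *Atp5b* (beta subunit), gave 13070 and 12070 normalized counts in the controls and 13980, 10440 and 13360 in *Hif1aCKO*, a log2 fold change of 0.0026 (95% interval -0.31 to 0.31). *Atp5e*, also of the F1 part, had a log2 fold change of 0.24 (SE 0.16). The 4 genes of the peripheral stalk that holds head and membrane part together (*Atp5f1*, *Atp5h*, *Atp5j*, *Atp5o*) had a median of 0.021. The 3 genes that encode the same c subunit of the rotating ring differed in level per length. *Atp5g3* stood at 1127 TPM against 69.8 TPM for *Atp5g1* and 59.3 TPM for *Atp5g2*. The annotated transcript of *Atp5g1* has 4715 bases against 714 for *Atp5g3*, and their mean normalized counts were 1495 and 3655. *Atp5g2* shares 87.4% of its windows with other genes. The log2 fold changes of *Atp5g3*, *Atp5g1* and *Atp5g2* were 0.15, 0.091 and 0.11 with SEs of 0.13, 0.15 and 0.28.

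The 4 small membrane subunits of complex V (*Atp5j2*, *Atp5k*, *Atp5l* and *Atp5mpl*), which bear on dimers of the enzyme, were all above 0, and their median was 0.31 on the log2 scale. *Atp5l* (chr9:44912557-44920742, minus strand), subunit g, gave 144 and 154 normalized counts in the controls and 217, 222 and 255 in *Hif1aCKO*. All mutant libraries were above both controls. The log2 fold change was 0.63 (SE 0.27, unadjusted p = 0.0440 and adjusted p = 0.637 by the quasi-likelihood test), and it ran from 0.56 to 0.68 when each library in turn was left out. The unadjusted p was under 0.05 in none of those fits, nor with DESeq2, the likelihood ratio test or limma-voom. Its transcript shares sequence with 14 other annotated genes, and reads that fit several of them were not counted. *Atp5k*, subunit e, gave 1040 and 919 in the controls and 992, 1380 and 1481 in *Hif1aCKO*. *Hif1aCKO* 3 fell between the controls, and the log2 fold change was 0.39 (SE 0.21). *Atp5j2*, subunit f, gave 2683 and 2456 in the controls and 2692, 3102 and 3271 in *Hif1aCKO*. *Hif1aCKO* 3 lay just above control 5, so the groups were barely apart, and the log2 fold change was 0.23 (SE 0.14).

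Promoters are shown for 4 members: *Atp5l*, *Uqcr10* and *Cox8a*, which lay higher in *Hif1aCKO*, and *Cox7a2l*, which lay lower. Their groups did not overlap, and their annotated starts in RefSeq and GENCODE lie within 3 bases of each other. *Ndufa7*, *Ndufb8* and *Atp5j* also met this rule and are not shown. Each printed promoter is the 250 bases before the start, 5′ to 3′ on the gene's strand, from RefSeq on GRCm38.p6. Capitals mark matches on either strand to motif letters of factors known to act on respiratory genes, namely NRF1 (GCATGCGC), ETS factors such as GABP (CCGGAAG) and YY1 (AAGATGGCG), and to the core of the HIF response element (ACGTG or GCGTG). In *Atp5l*, the match to the HIF core is a palindrome and counts on both strands.
Atp5l, chr9:44920743-44920992, minus strand: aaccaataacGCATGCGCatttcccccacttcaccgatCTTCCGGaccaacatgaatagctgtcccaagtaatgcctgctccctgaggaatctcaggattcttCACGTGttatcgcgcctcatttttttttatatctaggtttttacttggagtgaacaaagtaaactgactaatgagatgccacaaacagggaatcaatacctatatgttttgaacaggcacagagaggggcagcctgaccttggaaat
Uqcr10, chr11:4704345-4704594, minus strand: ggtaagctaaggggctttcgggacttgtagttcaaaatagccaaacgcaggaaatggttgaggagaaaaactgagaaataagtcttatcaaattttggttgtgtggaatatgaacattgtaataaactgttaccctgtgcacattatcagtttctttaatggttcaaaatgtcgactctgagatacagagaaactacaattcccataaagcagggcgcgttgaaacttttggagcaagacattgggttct
Cox8a, chr19:7217617-7217866, minus strand: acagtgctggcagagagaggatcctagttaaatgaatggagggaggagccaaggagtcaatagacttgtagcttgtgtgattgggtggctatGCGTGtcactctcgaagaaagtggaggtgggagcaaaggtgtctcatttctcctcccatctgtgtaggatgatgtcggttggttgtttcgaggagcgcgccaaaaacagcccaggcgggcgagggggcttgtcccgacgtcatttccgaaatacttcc
Cox7a2l, chr17:83514334-83514583, minus strand: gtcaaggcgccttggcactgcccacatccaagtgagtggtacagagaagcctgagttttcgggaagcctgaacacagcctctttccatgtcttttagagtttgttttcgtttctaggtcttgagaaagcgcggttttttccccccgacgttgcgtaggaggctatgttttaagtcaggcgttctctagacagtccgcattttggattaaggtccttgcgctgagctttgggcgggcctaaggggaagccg

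*Atp5l* held NRF1, ETS and HIF letters, *Cox8a* held the HIF core, and *Uqcr10* and *Cox7a2l* held none of the letters in these windows. RefSeq windows of 300 bases, from 250 before to 50 after the start, were matched for 67 of the 82 members. In this longer window *Cox8a* also held ETS letters. NRF1 letters were in 14.9% of the members' windows, against 5.91% of the windows of protein-coding genes tested. ETS letters were in 22.4% against 19.1%, and YY1 letters in 8.96% against 3.39%. The HIF core, a short word that occurs often, was in 62.7% of members and 64.4% of protein-coding genes tested. A match describes the letters in a window and does not show that a factor binds there.

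Short and long members parted in their fold changes. Over the 79 members with a mean normalized count of 100 or more, Spearman's rho between the coding length of the transcript and the log2 fold change was -0.61. It is a correlation across genes, which share the same 5 libraries and are not independent, and is given with no p. The 20 members with fewer than 300 coding bases had a median log2 fold change of 0.16, with 19 higher and 1 lower, the exception being *Ndufa4l2*. The 47 members from 300 to 900 coding bases had a median of 0.089, with 34 higher and 13 lower. The 12 members with 900 coding bases or more had a median of -0.078, with 2 higher and 10 lower. These last include *Ndufs1*, *Sdha*, *Uqcrc2* and *Ndufa10* described above. The subunit groups above also differ in length. The 7 core subunits of complex I had 636 to 2181 coding bases, and the 4 small membrane subunits of complex V had 174 to 309. The part of length in the medians of those groups was not tested. The length classes were chosen after the values were seen.

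A relation of the same sign was seen over ribosomal protein genes but not over other protein-coding genes as a whole, and it divided the mutant libraries. Over 8663 other protein-coding genes of that level, rho was 0.055, over 85 cytosolic ribosomal protein genes it was -0.53, and over 77 mitochondrial ribosomal protein genes it was -0.32. Of other protein-coding genes with fewer than 300 coding bases, 107 were higher and 75 lower, with a median log2 fold change of 0.053. Those with 900 or more had a median of -0.020. The median deviation of the short members minus that of the long members was -0.12 and -0.21 (log2) in controls 5 and 6, -0.12 in *Hif1aCKO* 3, and 0.21 and 0.15 in *Hif1aCKO* 4 and 5. *Hif1aCKO* 3 thus lay with the controls. For other protein-coding genes of the same length classes, this difference was -0.025 and -0.11 in the controls and -0.029, 0.016 and 0.11 in *Hif1aCKO*. Leaving out each library in turn gave a rho of -0.60 to -0.48 over the 79 members. Over the 49 members with at most 10% shared windows, rho over all libraries was -0.67. The part of transcript length in library preparation was not tested.

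**Figure D5:**
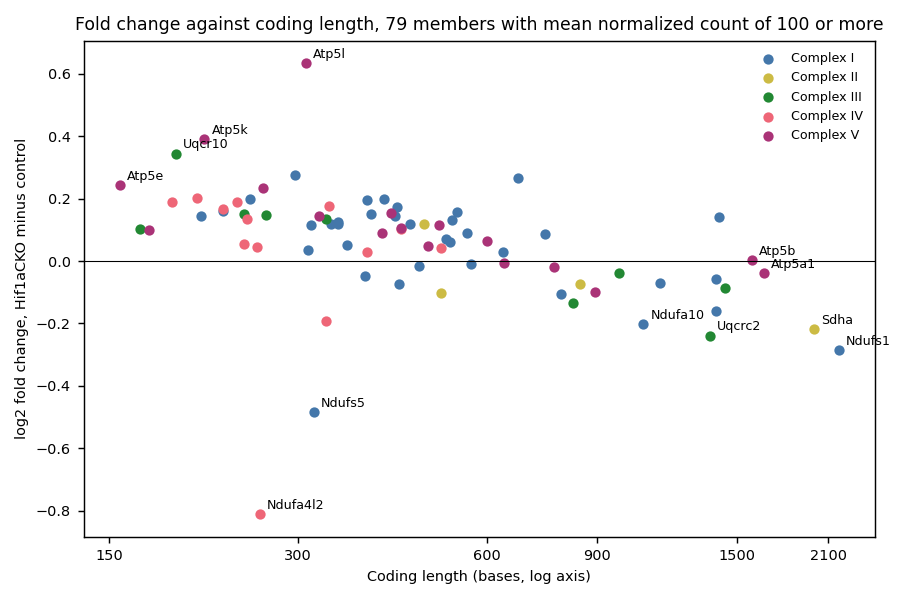
Log2 fold change against coding length in bases (log axis) for the 79 members with a mean normalized count of 100 or more, coloured by complex. Members under 300 bases lie above 0 except *Ndufa4l2*, and 10 of the 12 members of 900 bases or more lie below 0.

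Of the members, *Ndufa1*, *Ndufb11* and *Cox7b* are on the X chromosome, and the libraries differed in sex. *Xist* had 3974 raw counts in control 5, 4597 in *Hif1aCKO* 3 and at most 3 in the other libraries. The 3 genes had log2 fold changes of 0.14, 0.12 and 0.19 with SEs of 0.16, 0.16 and 0.15, and none of their groups was apart. Of 13 subunits encoded in mitochondrial DNA, 2 had a row in the count table. *mt-Nd1* had 1 to 5 counts and *mt-Cytb* 0 to 5 counts per library, too few to test. The others had no row, so the levels of these transcripts are not described here. The part of read processing in these low counts was not tested.

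Genes that build or feed the complexes were listed as a setting for the subunits, and 0 genes were called in any list. The 55 assembly factors had a median log2 fold change of 0.057 with 32 higher and 23 lower. *Lyrm7*, which loads the Rieske protein into complex III, had the smallest p of its list with 18.8 and 17.6 normalized counts in the controls and 62.2, 48.9 and 49.6 in *Hif1aCKO*. The groups were apart, and the log2 fold change was 1.55 (SE 0.59, adjusted p = 0.621 by the quasi-likelihood test). The mean of *Lyrm7* was below the normalized count of 50 that a call required. The smallest p of the other assembly lists belonged to *Ndufaf7* for complex I (-0.45), *Sdhaf2* for complex II (-0.30), *Cmc2* for complex IV (0.35) and *Fmc1* for complex V (0.32), given as log2 fold changes with adjusted p from 0.651 to 0.742 by the same test.

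Of 14 genes for the electron carriers ubiquinone and cytochrome c, 8 were higher and 6 lower, with a median of 0.023. *Coq2*, which attaches the side chain of ubiquinone, gave 46.9 and 66.8 normalized counts in the controls and 135, 138 and 185 in *Hif1aCKO*, a log2 fold change of 1.42 (SE 0.37, adjusted p = 0.586 by the quasi-likelihood test). It was higher in every mutant library. Of 20 regulators of mitochondrial biogenesis tested, 15 were higher and 5 lower, with a median of 0.16. *Yy1*, the factor whose letters were searched in the promoters, gave 203 and 233 in the controls and 343, 384 and 348 in *Hif1aCKO*, a log2 fold change of 0.72 (SE 0.23, adjusted p = 0.611 by the same test). The groups did not overlap.

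Of 19 genes of the tricarboxylic acid cycle and pyruvate entry, 5 were higher and 14 lower, with a median of -0.072. *Idh2*, the mitochondrial isocitrate dehydrogenase that makes NADPH, had the smallest p with 0.41 (SE 0.15). Of 11 genes through which HIF-1 is known to bear on respiration, *Cox4i2* and *Ndufa4l2* among them, 5 were higher and 6 lower with a median of -0.13. *Bnip3*, a mitophagy receptor, gave 509 and 652 normalized counts in the controls and 445, 308 and 348 in *Hif1aCKO*, lower in every mutant library with a log2 fold change of -0.66 (SE 0.23, adjusted p = 0.621 by the quasi-likelihood test).

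Glycolysis, which makes ATP without the respiratory chain, stood beside the subunits with another sign. Of 17 glycolytic genes, 3 were higher and 14 lower, with a median log2 fold change of -0.39 where the subunits had 0.10. The median deviation of these genes (log2) was 0.11 and 0.38 in controls 5 and 6, so control 6 was the highest. In *Hif1aCKO* 3, 4 and 5 it was 0.0017, -0.21 and -0.084 for these genes. An unadjusted p under 0.05 was reached by 7 of them, all lower (background 3.85%), and by none higher. *Pfkl*, the liver form of phosphofructokinase, gave 697 and 785 normalized counts in the controls and 481, 443 and 480 in *Hif1aCKO*, a log2 fold change of -0.66 (SE 0.17, adjusted p = 0.586 by the quasi-likelihood test). The difference between this list and the subunits was not tested. Cytosolic ribosomal protein genes, short and abundant like many subunits, had 83 of 92 tested higher with a median of 0.22, and mitochondrial ribosomal protein genes 49 of 77 with a median of 0.037.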

How the data were processed

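The authors sequenced 5 libraries made with a low-input kit, trimmed reads, removed ribosomal RNA and vector reads, mapped the rest to GRCm38 with STAR, and used Rsubread to count uniquely placed reads for each gene. The submitters' processing notes name STAR 2.7.0c, cutadapt 1.18 and Bowtie 1.2.2. The deposited values are raw counts. Gene names, positions and lengths came from GENCODE M21, where the study used M8. One transcript per gene (principal isoform, then best supported, then longest) set lengths.

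Groups follow the labels. The series' design text describes controls without Isl1-Cre, whereas the sequenced controls carry it. edgeR 4.0.16 (TMM factors from 0.974 to 1.03, filterByExpr, quasi-likelihood test, Benjamini-Hochberg adjustment over 15032 genes) in R 4.3.3 gave fold changes, SEs and p-values, and a normalized count is a count rescaled to an effective library of 8747702 counts, the mean of the 5. A background percentage is the share of all genes tested that meets the same rule. Chi-square values per degree of freedom between pairs of libraries were 15.2 to 38.5, far above sampling noise, so none was a duplicate. The scripts were tested on simulated data. DESeq2 1.42.0 and limma 3.58.1 (voom) were alternatives, with other normalizations, filters, thresholds and leaving out each library. Tables and plots used Python 3.11.15, pandas 2.3.3, numpy 2.4.6 and matplotlib 3.10.9.

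The members and lists were chosen with earlier results of these data known. Values are given for the member of each complex with the highest level and with the smallest p, the 10 smallest p over all members, the isoform pairs, complex II, and the smallest p of each list. Other genes with values (such as *Ndufs5*, *Atp5b*, *Rgs5*, *Epas1* and the X-linked members) and the printed promoters were chosen after their values were seen. 1 member is counted in all totals but not reported by name here. *Aldoa* is listed under 2 identifiers, and the one with more counts was used.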

Additional observations from a re-analysis of the deposited data

How the results depend on the processing

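The count of members called was 0 under all 15 alternatives. The count over all genes was 0 except for 60 with DESeq2 (30 higher, 30 lower), 40 with the likelihood ratio test (15 higher, 25 lower), and 0 to 4 when each library in turn was left out, where the 4 came without control 5. The number of members at an unadjusted p under 0.05 was 2, and it was 3 with upper-quartile factors, 1 with no filter on low counts, 1 with at least 10 counts in every library (80 members tested) and 1 with the likelihood ratio test. Which members these were also changed: DESeq2 gave *Cox4i2* and *Uqcr10*, limma-voom *Ndufa4l2* and *Uqcr10*, and *Atp5l* was among them only with TMM, RLE and upper-quartile scaling and TMM without OXPHOS and ribosomal genes, each with the quasi-likelihood test and its usual filter. Leaving out each library gave 0 to 5, with 0 without control 6 or *Hif1aCKO* 5 and 5 without *Hif1aCKO* 3. The median log2 fold change of the members was 0.092 to 0.13 under the other alternatives and 0.036 (without control 6) to 0.11 when a library was left out, and 48 to 61 members were above 0. Over all genes the median without control 6 was 0.038, so the lean of the members above all genes was absent there. Where 1 control was left, it was assumed to vary like the *Hif1aCKO* libraries. Of 505 values of the 39 genes named by rule, 9 in 7 genes changed sign, each when a library was left out. These were *Atp5g2* and *Cox6b2* (-0.30) without control 6, *Cox7a1* and *Sdhc* without control 5, *Cox6b2* without *Hif1aCKO* 3, *Cox7a1* (-0.32) without *Hif1aCKO* 4, and *Cox4i1*, *Cox6b1* and *Ndufa4* without *Hif1aCKO* 5. Over the 5 libraries left out, these genes ranged from -0.11 to 0.35 (*Atp5g2*), -0.015 to 0.096 (*Cox4i1*), -0.0090 to 0.098 (*Cox6b1*), -0.49 to 0.76 (*Cox6b2*), -0.40 to 1.71 (*Cox7a1*), -0.00075 to 0.10 (*Ndufa4*) and -0.22 to 0.017 (*Sdhc*). The causes were not tested. The correlation with coding length, computed under the same alternatives after seeing the data, was -0.61 to -0.60 outside of leaving out libraries. No paired analysis was possible because the groups share only 1 replicate number. The interval of the fold change lay within 1.5-fold in 66 of 82 members. *Cox4i2*, *Cox6b2*, *Cox7a1*, *Ndufa4l2*, *Ndufs5* and *Atp5s*, each with a mean of fewer than 400 normalized counts, were too variable to bound so closely. They were not the only members outside that bound. *Ndufb4*, *Atp5g2* and *Atp5l* were also outside it with fewer than 400 counts. Among members with a mean of 1000 or more, *Uqcr10*, *Ndufs1*, *Ndufs7*, *Atp5k* and *Ndufa2* were outside it too.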
